A study of Homo sapiens with 12 samples.

Results

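The Hippo pathway and its transcriptional output were examined through 39 named genes, made up of 24 pathway components and 15 genes known as targets of the coactivators YAP and TAZ. Members were picked out of the data by gene symbol alone, but the list itself was chosen with earlier results of these data known. All 39 symbols were found once in each of the 2 deposited tables, of 60623 and 60671 genes, and all 39 passed the low-count filter in both. The components were divided by role into 11 genes of the kinase cassette and its activators, 5 angiomotins and adaptor proteins, and 8 coactivators, TEAD factors and VGLL proteins.

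Hippo signalling is a kinase cascade in which the MST kinases (STK3 and STK4), with the scaffold SAV1, activate the LATS kinases with their MOB1 cofactors, and LATS phosphorylates YAP (YAP1) and TAZ (WWTR1) so that they are kept in the cytoplasm or degraded. Unphosphorylated YAP and TAZ enter the nucleus, bind the TEAD transcription factors and activate genes such as CCN1, CCN2 and ANKRD1. Several components, among them LATS2, AMOTL2, PTPN14 and AJUBA, are themselves known as targets of this output, and YAP and TAZ activity is well studied in the cell line used here. Much of this regulation acts on protein phosphorylation and location, which RNA-seq does not measure.

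RNA-seq was performed on MDA-MB-231, a human triple-negative breast cancer cell line, in 4 groups of 3 libraries. NONO_KD cells had siRNA knockdown of NONO, a paraspeckle RNA-binding protein, and PKM2_KD cells had siRNA knockdown of PKM2, the pyruvate kinase isoform encoded by PKM. Each knockdown had its own negative-control (NC) group of wild-type genotype, and all 12 libraries came from this single line. The comparison asks which genes respond to loss of either partner of a proposed NONO/PKM2 complex, but the siRNA used for each library, the time after transfection and whether repeats were separate cultures are not given in the sources used here, so P values measure only the spread between these libraries.

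Libraries held 19861762 to 28455268 counts each. NONO fell from 373 ± 16.7 to 62.7 ± 1.40 CPM (counts scaled to library size) in NONO_KD, and PKM, counted over all its isoforms, fell from 2270 ± 56.8 to 227 ± 8.30 CPM in PKM2_KD (SD, n = 3 each). Labels of the line were checked with VIM and CD44, which were at 3810 to 5540 and 355 to 408 CPM, while the hormone receptor genes ESR1 and PGR stayed at or below 0.436 CPM and CDH1 at or below 0.086 CPM. ERBB2 lay at 36.3 to 80.3 CPM, and the leukocyte marker PTPRC and endothelial marker CDH5 did not exceed 0.357 CPM in any library. The epithelial marker EPCAM lay at 1.38 to 3.71 CPM, and PECAM1, an endothelial marker, went from 1.47 ± 0.513 to 2.68 ± 0.318 CPM in the NONO experiment and from 1.61 ± 0.5 to 1.09 ± 0.283 CPM in the PKM2 experiment. The part of PECAM1-expressing cells in the results was not tested. The third PKM2_KD library, and NC library 1 for NONO, stood apart from their groups, and calls that changed without either are given beside the gene.

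Promoter sequences are shown for 3 members because they hold the short motif, GGAATG, that TEAD factors recognise. CCN2 and ANKRD1 are standard output genes that fell in both experiments, and AMOTL2 is a feedback gene that moved in opposite directions in the 2 experiments. Each sequence is the 250 bases before the RefSeq start on GRCh38.p14, 5′ to 3′ on the strand of the gene, and all 3 genes lie on the minus strand. Their positions are chr6:131951373-131951622 for CCN2, chr10:90921088-90921337 for ANKRD1 and chr3:134374448-134374697 for AMOTL2. Capitals mark GGAATG or its reverse complement CATTCC, and in ANKRD1 also TGATTCA, a match to TGANTCA. The latter is a loosened form of the motif of AP-1 factors, which has C or G at its centre.
CCN2: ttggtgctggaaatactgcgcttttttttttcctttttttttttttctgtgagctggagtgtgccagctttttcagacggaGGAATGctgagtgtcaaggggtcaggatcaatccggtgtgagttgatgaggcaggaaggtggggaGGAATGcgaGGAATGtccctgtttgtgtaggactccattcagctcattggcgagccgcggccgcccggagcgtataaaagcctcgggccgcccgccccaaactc
ANKRD1: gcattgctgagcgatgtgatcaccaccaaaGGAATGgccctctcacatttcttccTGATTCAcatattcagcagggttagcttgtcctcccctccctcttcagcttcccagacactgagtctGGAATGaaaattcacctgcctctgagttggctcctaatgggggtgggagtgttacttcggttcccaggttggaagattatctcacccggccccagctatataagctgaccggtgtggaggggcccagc
AMOTL2: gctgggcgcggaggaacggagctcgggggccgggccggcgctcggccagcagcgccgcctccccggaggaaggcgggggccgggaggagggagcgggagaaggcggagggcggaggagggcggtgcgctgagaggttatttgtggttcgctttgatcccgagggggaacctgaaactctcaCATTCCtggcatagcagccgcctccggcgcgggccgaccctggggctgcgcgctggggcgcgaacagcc

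CCN2 carried 3 copies of GGAATG in this window, starting 169, 104 and 95 bases before the RefSeq start. ANKRD1 carried 2, at 220 and 128 bases before the start, with the TGATTCA match beginning 195 bases before it, and AMOTL2 carried 1 on the opposite strand at 69 bases. Among the members, 31 matched the RefSeq promoter table, with 44 windows reaching from 250 bases before to 50 bases after a start, and 10 of these windows (22.7%) held GGAATG on either strand, against 14.0% of all 35116 windows in the table. The 10 genes were the targets CCN2, ANKRD1, AXL and FOXF2, the adaptors AMOTL2, PTPN14 and AJUBA, the kinase-cassette genes LATS2 and WWC2, and YAP1 itself. TGANTCA, searched on both strands, was found in 3 of the 44 windows (6.82%), those of ANKRD1, LATS1 and MOB1B, against 7.71% of all windows. Each of these member matches had A or T at the centre, not the C or G of the AP-1 motif. TEAD1, TEAD4, STK3, CCN1, CRIM1, ARHGEF17, ASAP1 and DLC1 had no entry in that table.

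In NC cells the 4 most abundant members were all targets, although other targets lay below many components. On the TPM scale, which accounts for transcript length as well as depth, ANKRD1, a nuclear ankyrin-repeat protein, stood at 825 ± 73.2 TPM in the NC libraries of the NONO experiment and 1170 ± 15.7 TPM in those of the PKM2 experiment (SD, n = 3 each). The matricellular proteins CCN1 and CCN2 followed at 616 ± 95.5 and 453 ± 38.9 TPM in the former and 570 ± 94.6 and 448 ± 27.6 TPM in the latter. AXL, a receptor tyrosine kinase, was next at 340 ± 4.06 and 370 ± 2.23 TPM, so the order of these 4 genes was shared by both sets of NC libraries. CCN1 and CCN2 lay close relative to their spread in both sets. The lowest CCN1 and highest CCN2 libraries were at 508 and 497 TPM in the NONO experiment and 488 and 477 TPM in the PKM2 experiment.

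Coactivator and TEAD mRNAs were present at intermediate levels. YAP1 was at 66.0 ± 2.03 and 59.9 ± 2.60 TPM in the 2 sets of NC libraries and WWTR1 at 63.5 ± 3.83 and 44.7 ± 4.67 TPM. TEAD1 was the most abundant TEAD, at 77.2 ± 4.34 and 64.6 ± 1.21 TPM, although the tables give it different lengths of 1281 and 9417 bases. LATS1 was lower than LATS2 in both sets, at 6.90 ± 0.660 against 14.6 ± 1.62 TPM and 6.53 ± 0.865 against 12.6 ± 0.472 TPM. The lowest members were VGLL3, RBMS3 and AMOT, at 1.13, 1.95 and 3.72 TPM in the NC libraries of the NONO experiment.

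NONO knockdown changed 21 of the 39 members at an adjusted P below 0.05 (edgeR quasi-likelihood test, Benjamini-Hochberg adjustment over 14832 genes), 15 lower and 6 higher. Among all genes tested 33.4% were called, 17.2% lowered and 16.2% raised, so the share of members called was 53.8%. PKM2 knockdown changed 32 of the 39, 21 lower and 11 higher, or 82.1%, beside 68.4% of all 15524 genes tested in that experiment, of which 34.7% were lowered and 33.6% raised. Past a 2-fold change at an unadjusted P below 0.05, NONO knockdown left 3 members, TEAD1, CCN2 and ANKRD1, all lower, beside 2.95% of all genes. By the same rule PKM2 knockdown left 8, with SAV1, LATS2 and VGLL4 higher and MOB1A, AMOT, CCN2, FJX1 and ASAP1 lower, beside 20.8% of all genes.

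Components and targets were counted separately, and no test of the difference between the classes was made. After NONO knockdown 9 components fell and 4 rose, with a median log2 fold change over the 24 of -0.09, and 6 targets fell and 2 rose, with a median over the 15 of -0.15. After PKM2 knockdown 10 components fell and 9 rose, with a median of -0.15, whereas 11 targets fell and 2 rose, with a median of -0.39. The median over all genes tested was -0.01 in both experiments. Of all genes tested, 17.2% fell and 16.2% rose after NONO knockdown, and 34.7% fell and 33.6% rose after PKM2 knockdown. Called in either direction were 54.2% of components and 53.3% of targets after NONO knockdown, where 33.4% of all genes were. After PKM2 knockdown these shares were 79.2% and 86.7%, where 68.4% of all genes were called. Counting LATS2, AMOTL2, PTPN14 and AJUBA with the targets because of their known feedback moved the PKM2 medians to -0.246 for components and -0.217 for targets, so the gap between the classes after PKM2 knockdown depended on that assignment. With NC library 1 for NONO left out, 7 components rose in place of 4.

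**Figure D1:**
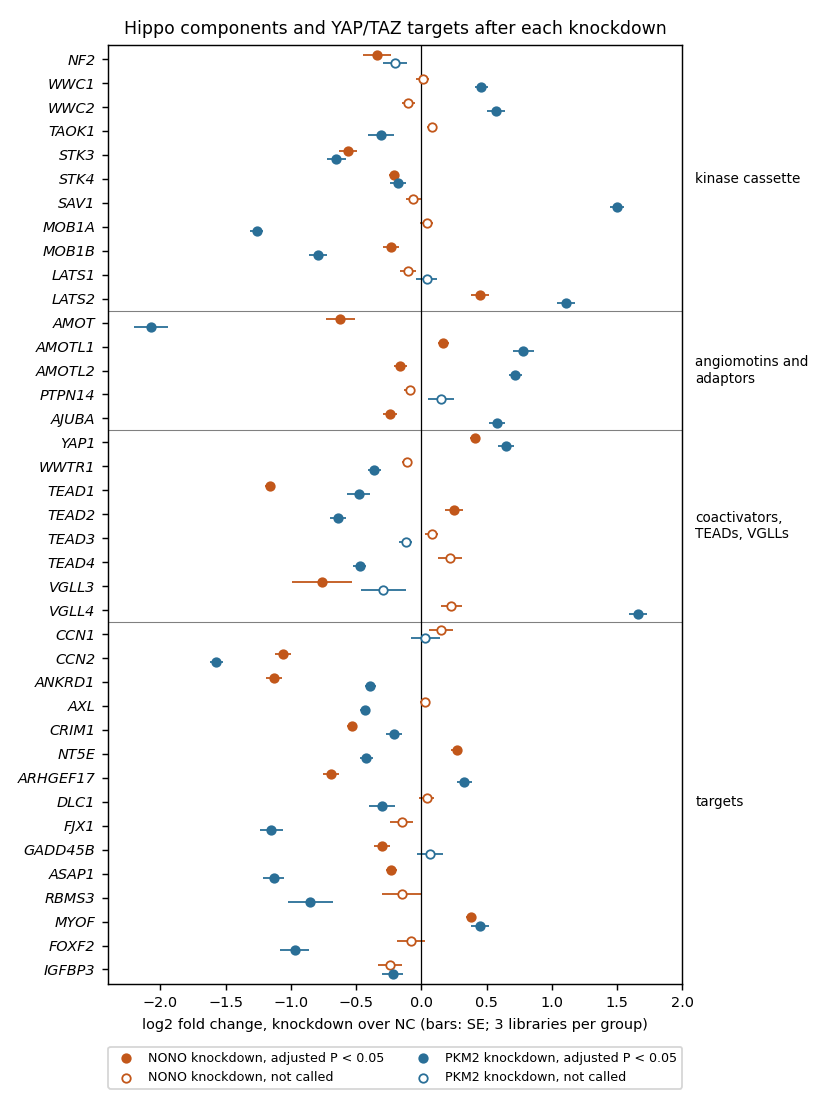
Log2 fold change of each of the 39 members after NONO knockdown (orange) and PKM2 knockdown (blue), knockdown over NC, with the standard error as a bar, grouped by role. Filled points passed an adjusted P of 0.05 in edgeR, and among the targets 11 of the 13 filled blue points lie left of 0.

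In the kinase cassette, MST kinases fell after both knockdowns. STK3 (MST2) was at 31.6, 33.7 and 31.3 CPM in NC and 22.4, 21.7 and 21.6 CPM in NONO_KD, and at 28.7, 27.2 and 28.1 CPM in NC and 18.7, 18.5 and 16.5 CPM in PKM2_KD. Every knockdown library was below every NC library of its experiment, and the log2 fold changes were -0.56 (SE 0.07, edgeR adjusted P = 0.000113) and -0.65 (SE 0.07, edgeR adjusted P = 9.25e-06). STK4 (MST1) fell less, by 0.21 (edgeR adjusted P = 0.00415) and 0.18 (edgeR adjusted P = 0.0152) on the log2 scale, and its call after PKM2 knockdown was lost with limma on log2(TPM + 1), at -0.245, and without the first NC library of that experiment, at -0.172. Neither gene differed between the 2 responses by a test, with differences of -0.10 (SE 0.10) and 0.01 (SE 0.08).

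SAV1, the scaffold that joins MST to LATS (chr14:50632058-50668331, GRCh38), was at 48.6, 55.1 and 52.3 CPM in NC and 49.4, 50.2 and 49.6 CPM in NONO_KD, so these groups overlapped. In the PKM2 experiment it stood at 54.6, 54.8 and 52.3 CPM in NC and 157, 151 and 148 CPM in PKM2_KD, with no overlap. The rise was 2.82-fold (log2 fold change 1.50, SE 0.05, edgeR adjusted P = 5.23e-10), and the response to PKM2 knockdown exceeded that to NONO knockdown by 1.55 (SE 0.07, edgeR adjusted P = 3.29e-11). Exons of SAV1 share 840 bases with ATL1 on the opposite strand, and ATL1 stood at 2.62 CPM in NC and 0.889 CPM in PKM2_KD.

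The LATS cofactor MOB1A moved the other way. It lay at 151, 149 and 153 CPM in NC and 67.3, 61.7 and 59.9 CPM in PKM2_KD, a log2 fold change of -1.26 (SE 0.05, edgeR adjusted P = 3.08e-09), and at 158, 146 and 149 against 150, 153 and 162 CPM in the NONO experiment, where the groups overlapped. Its paralogue MOB1B fell in both experiments, by 0.79 on the log2 scale after PKM2 knockdown (edgeR adjusted P = 8.93e-07) and by 0.23 after NONO knockdown (edgeR adjusted P = 0.0117), and its exons share 199 bases with DCK on the same strand. The latter call was lost with limma on log2(TPM + 1), at -0.247, and without the third NC library (-0.178) or the second NONO_KD library (-0.212). Together MOB1A and MOB1B were at 69.5 ± 1.39 TPM in NC and 32.4 ± 1.67 TPM in PKM2_KD, and at 62.8 ± 0.740 and 64.8 ± 2.76 TPM in the NONO experiment (SD, n = 3).

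LATS2, the kinase that is also a YAP/TAZ target, rose after both knockdowns while LATS1 passed the test in neither. LATS2 (chr13:20973032-21061547, GRCh38) was at 52.7, 65.1 and 58.7 CPM in NC and 81.8, 78.6 and 80.6 CPM in NONO_KD. In the PKM2 experiment the values were 45.7, 48.0 and 44.7 CPM in NC and 104, 106 and 89.7 CPM in PKM2_KD, and in each experiment all knockdown libraries were above all NC libraries. Its log2 fold changes were 0.45 (SE 0.07, edgeR adjusted P = 0.000507) and 1.11 (SE 0.07, edgeR adjusted P = 5.35e-08), and they differed by 0.65 (edgeR adjusted P = 4.28e-05). LATS1 was at 36.0, 33.6 and 35.2 against 32.4, 32.0 and 33.5 CPM, and at 27.5, 31.6 and 29.4 against 32.5, 31.4 and 26.8 CPM. The shift between the kinases was visible as LATS2's share of their summed TPM, which went from 65.9 ± 2.27% to 81.3 ± 0.504% with PKM2 knockdown and from 67.9 ± 3.23% to 74.7 ± 0.473% with NONO knockdown.

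Of 4 upstream regulators, 3 were called after PKM2 knockdown and 1 after NONO knockdown, where 68.4% and 33.4% of all genes were. WWC1 (KIBRA) and WWC2, scaffolds that promote LATS activation, rose with log2 fold changes of 0.46 and 0.57 after PKM2 knockdown (edgeR adjusted P = 9.73e-06 and 1.16e-05), against 0.01 and -0.10 after NONO knockdown, and both differences between the experiments passed the test. TAOK1, which phosphorylates MST kinases, fell by 0.31 on the log2 scale after PKM2 knockdown, with 161, 158 and 118 CPM in PKM2_KD below 179, 175 and 185 CPM in NC. Its value of 0.08 after NONO knockdown was not called but became 0.101 and passed without NC library 1. NF2, which encodes the membrane-linked tumour suppressor Merlin, fell by 0.34 after NONO knockdown (edgeR adjusted P = 0.0289), a call lost when any 1 of 4 of the 6 libraries was left out, and stood at -0.20 in the PKM2 experiment (edgeR adjusted P = 0.0619).

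Among the angiomotins, which hold YAP at junctions and the actin cytoskeleton, the 3 paralogues took 3 patterns. AMOT (chrX:112774503-112840815, GRCh38) was at 14.4, 12.4 and 12.6 CPM in NC and 8.58, 8.90 and 8.03 CPM in NONO_KD, and at 12.8, 13.5 and 13.1 CPM in NC and 2.57, 3.70 and 3.13 CPM in PKM2_KD. No knockdown library reached its NC range, and the falls of 0.62 (SE 0.11) and 2.07 (SE 0.13) on the log2 scale differed by -1.45 (SE 0.17, edgeR adjusted P = 1.55e-06). AMOTL1 rose in both, from 128 ± 2.49 to 144 ± 2.36 CPM and from 102 ± 1.02 to 176 ± 21.5 CPM. With limma on log2(TPM + 1) the NONO calls of AMOT (-0.537) and AMOTL1 (0.156) were lost. AMOTL2 fell slightly with NONO knockdown, from 374, 336 and 333 to 318, 310 and 306 CPM, and rose with PKM2 knockdown, from 326, 350 and 334 to 552, 570 and 541 CPM.

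AMOTL2 was the predominant angiomotin, with 83.0 ± 0.536% of their summed TPM in NC of the NONO experiment and 84.8 ± 0.763% in NC of the PKM2 experiment. The sum therefore followed AMOTL2, at 133 ± 5.79 TPM in NC and 196 ± 15.2 TPM in PKM2_KD, and at 140 ± 6.56 TPM in NC and 125 ± 2.29 TPM in NONO_KD. Its log2 fold changes were -0.16 (SE 0.05, edgeR adjusted P = 0.0283) and 0.72 (SE 0.05, edgeR adjusted P = 7.87e-08), with a difference of 0.87 (edgeR adjusted P = 2.74e-08). The call in the NONO experiment was lost when any of the 3 NONO_KD libraries was left out. AJUBA, a LIM protein that binds LATS, showed the same opposition, at -0.24 (edgeR adjusted P = 0.0021) and 0.58 (edgeR adjusted P = 5.24e-06). PTPN14, a phosphatase that binds YAP, passed in neither experiment, but in PKM2_KD it read 225, 237 and 172 CPM against 185, 193 and 191 CPM in NC, and without the third PKM2_KD library its log2 fold change was 0.291 and passed.

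**Figure D2:**
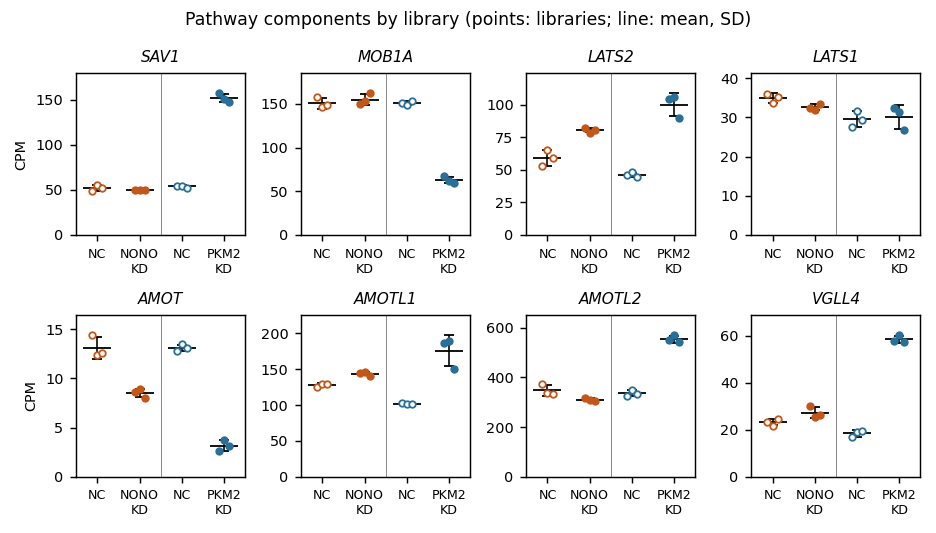
CPM of 8 components in each library (points), with the group mean and SD as lines, for the NONO experiment (orange) and the PKM2 experiment (blue), open points for NC and filled for knockdown; each axis starts at 0. SAV1, LATS2, AMOTL1, AMOTL2 and VGLL4 are above their NC libraries in all 3 PKM2_KD libraries, and MOB1A and AMOT are below.

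YAP1 rose after both knockdowns. It was at 194, 191 and 187 CPM in NC and 254, 248 and 255 CPM in NONO_KD, and at 174, 183 and 183 CPM in NC and 303, 289 and 257 CPM in PKM2_KD, with no overlap in either. The log2 fold changes were 0.41 (SE 0.04, edgeR adjusted P = 2.33e-05) and 0.65 (SE 0.06, edgeR adjusted P = 1.62e-06). They differed by 0.23 (SE 0.08, edgeR adjusted P = 0.0154), which was 0.084 and not called with limma on log2(TPM + 1).

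WWTR1, which encodes TAZ, did not follow YAP1. Its CPM was 132, 140 and 142 in NC and 130, 126 and 128 in NONO_KD (log2 fold change -0.11, SE 0.04, edgeR adjusted P = 0.0856), and without NC library 1 the value was -0.125 and passed. In PKM2_KD it read 96.3, 96.4 and 87.8 CPM against 121, 120 and 119 CPM in NC, a fall of 0.36 on the log2 scale (SE 0.05, edgeR adjusted P = 6.51e-05) that became -0.164 and was not called with limma on log2(TPM + 1). As a share of the summed TPM of the pair, YAP1 went from 51.0 ± 2.18% to 59.0 ± 0.442% with NONO knockdown and from 57.4 ± 3.31% to 66.9 ± 3.28% with PKM2 knockdown. The summed TPM itself was 130 ± 2.43 and 141 ± 2.93 in the former and 105 ± 3.88 and 121 ± 15.3, with overlapping libraries, in the latter.

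TEAD1, the most abundant of the DNA-binding partners of YAP and TAZ, was 1 of the 3 members that fell more than 2-fold after NONO knockdown. TEAD1 (chr11:12674591-12944483, GRCh38) was at 420, 386 and 403 CPM in NC and 185, 177 and 180 CPM in NONO_KD, a 2.23-fold fall (log2 fold change -1.16, SE 0.04, edgeR adjusted P = 2.19e-08). PKM2 knockdown lowered it from 419, 405 and 404 to 315, 320 and 243 CPM (log2 fold change -0.48, SE 0.09, edgeR adjusted P = 0.000353). All knockdown libraries were below all NC libraries in each experiment, and the fall after NONO knockdown was the larger by 0.66 (SE 0.11, edgeR adjusted P = 5.60e-05).

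Other TEAD genes responded differently to the 2 knockdowns. TEAD2 rose by 0.25 on the log2 scale after NONO knockdown (edgeR adjusted P = 0.0189) and fell by 0.64 after PKM2 knockdown (edgeR adjusted P = 3.16e-06). The rise was lost with limma on log2(TPM + 1), at 0.074, and TEAD2 shares 319 exon bases with CD37 on the opposite strand, itself at 1.62 CPM in NC and 0.304 CPM in PKM2_KD. TEAD4 fell by 0.47 after PKM2 knockdown (edgeR adjusted P = 7.11e-06) and had a positive value of 0.22 after NONO knockdown that did not pass (edgeR adjusted P = 0.0732). That value became 0.325 and passed without NC library 1, and 0.227 and passed without the low-count filter. TEAD3 passed in neither, at 0.08 and -0.12. After PKM2 knockdown it was called lower with limma on log2(TPM + 1), at -0.24, and without the second PKM2_KD library (-0.153). The values of 0.08 and -0.12 differed by -0.22 (edgeR adjusted P = 0.0155). That difference was not called without the low-count filter (-0.228) or without the first NONO_KD library (-0.195).

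Summed over TEAD1 to TEAD4, TPM went from 165 ± 8.02 to 128 ± 1.41 with NONO knockdown and from 155 ± 3.09 to 113 ± 11.1 with PKM2 knockdown (SD, n = 3 each), with no overlap in either experiment. Composition moved further with NONO knockdown, where the TEAD1 share of that sum went from 46.7 ± 0.564% to 26.2 ± 0.773% and the TEAD4 share from 19.7 ± 1.55% to 29.2 ± 1.66%. With PKM2 knockdown the TEAD1 share went from 41.6 ± 0.514% to 37.4 ± 3.26%. An exact permutation test of 3 against 3 libraries cannot give a two-sided P below 0.1, so these sums and shares are given without a test.

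VGLL4, which competes with YAP and TAZ for TEAD, had the largest rise among the members. It was at 16.9, 19.2 and 19.4 CPM in NC and 58.0, 60.3 and 57.5 CPM in PKM2_KD, a 3.17-fold rise (log2 fold change 1.66, SE 0.07, edgeR adjusted P = 2.07e-09). In the NONO experiment 23.4, 21.8 and 24.8 CPM in NC compared with 30.1, 25.6 and 26.4 CPM in NONO_KD, which did not overlap but gave an edgeR adjusted P of 0.056 for a log2 fold change of 0.23. It passed without NC library 1 (0.24), with relative log expression factors (0.236) and without the low-count filter (0.233). The rise was absent on the TPM scale. There the NONO_KD mean of VGLL4 lay below the NC mean of 12.7 ± 1.78 TPM, within the NC range of 11.3 to 14.7 TPM. VGLL4 (chr3:11556070-11771350, GRCh38) shares 1596 exon bases with ATG7 on the opposite strand, which was at 29.9 CPM in NC and 41.0 CPM in PKM2_KD. VGLL3, another TEAD-binding cofactor, was scarce, at 4.62, 4.43 and 6.50 CPM in NC and 2.09, 3.61 and 3.46 CPM in NONO_KD (log2 fold change -0.76, SE 0.23, edgeR adjusted P = 0.0244), and leaving out either the third NC or the first NONO_KD library ended that call.

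The 3 standard YAP/TAZ reporters did not respond alike. CCN1 was at 721, 979 and 912 CPM in NC and 1050, 949 and 902 CPM in NONO_KD, and at 709, 950 and 793 CPM in NC and 959, 763 and 773 CPM in PKM2_KD. These groups overlapped in both experiments, with log2 fold changes of 0.15 (SE 0.09, edgeR adjusted P = 0.247) and 0.03 (SE 0.11, edgeR adjusted P = 0.84). Without the low-count filter the value after NONO knockdown was 0.155 and passed. CCN1 varied more among NC libraries than CCN2 did, with SDs of 133 and 122 CPM against 59.3 and 33.6 CPM.

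CCN2 (chr6:131948176-131951373, GRCh38) fell in both experiments. The NC libraries of the NONO experiment held 666, 772 and 673 CPM and NONO_KD 350, 342 and 322 CPM, and those of the PKM2 experiment held 638, 705 and 673 CPM and PKM2_KD 219, 227 and 231 CPM. The falls were 2.08-fold (SE 0.06 on the log2 scale) and 2.98-fold (SE 0.05), with edgeR adjusted P of 4.24e-07 and 4.36e-10. ANKRD1 fell more after NONO knockdown, from 1170, 991 and 999 to 489, 476 and 483 CPM, than after PKM2 knockdown, from 1330, 1260 and 1300 to 1010, 966 and 990 CPM. Its log2 fold changes of -1.13 (SE 0.06, edgeR adjusted P = 3.17e-07) and -0.39 (SE 0.04, edgeR adjusted P = 6.16e-06) differed by 0.72 (SE 0.08, edgeR adjusted P = 7.55e-07), opposite in sign to the difference of -0.53 for CCN2.

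**Figure D3:**
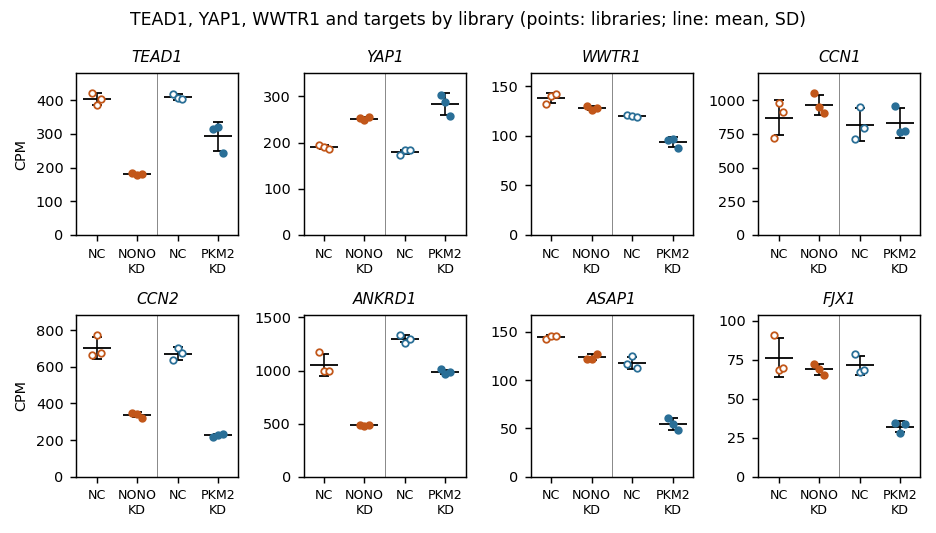
CPM of TEAD1, YAP1, WWTR1 and 5 targets in each library (points), with the group mean and SD as lines, for the NONO experiment (orange) and the PKM2 experiment (blue), open points for NC and filled for knockdown; each axis starts at 0. CCN1 overlaps between NC and knockdown in both experiments, while CCN2 and ANKRD1 are lower in every knockdown library, CCN2 at 219 to 231 CPM in PKM2_KD and ANKRD1 at 476 to 489 CPM in NONO_KD.

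Of the remaining targets, 2 fell in both experiments. CRIM1, a transmembrane regulator of BMP signalling, fell by 0.53 on the log2 scale after NONO knockdown (edgeR adjusted P = 5.24e-06) and by 0.21 after PKM2 knockdown (edgeR adjusted P = 0.006). ASAP1, an Arf GTPase-activating protein involved in invasion, was at 143, 146 and 146 CPM in NC and 122, 122 and 127 CPM in NONO_KD, and at 117, 125 and 113 CPM in NC and 60.3, 54.2 and 48.0 CPM in PKM2_KD. Its falls were 0.23 (SE 0.04, edgeR adjusted P = 0.00138) and 1.13 (SE 0.08, edgeR adjusted P = 1.28e-07) on the log2 scale. MYOF, a ferlin of the plasma membrane, rose in both, by 0.38 and 0.45 on the log2 scale (edgeR adjusted P = 1.67e-05 and 9.08e-05).

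Among all 15 targets, 6 were called lower after PKM2 knockdown and did not pass after NONO knockdown. This pattern was shown by 22.2% of the 14525 genes tested in both. FJX1, a homologue of four-jointed, was at 78.5, 67.0 and 68.2 CPM in NC and 34.6, 27.9 and 33.6 CPM in PKM2_KD (log2 fold change -1.15, SE 0.09, edgeR adjusted P = 2.90e-07), and at 90.6, 68.6 and 69.5 against 72.4, 68.8 and 65.3 CPM, overlapping, in the NONO experiment. The transcription factor FOXF2 fell by 0.97 (edgeR adjusted P = 9.17e-06) and AXL by 0.43 (edgeR adjusted P = 2.51e-06). The RNA-binding protein gene RBMS3, at only 4.03 ± 0.237 CPM in NC, fell by 0.85 (edgeR adjusted P = 0.000833), which limma on log2(TPM + 1) did not call. For these 4 the difference between the experiments also passed, at -1.02, -0.91, -0.47 and -0.72.

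DLC1, a GTPase-activating protein, and IGFBP3, which binds insulin-like growth factors, fell by 0.30 (edgeR adjusted P = 0.0149) and 0.22 (edgeR adjusted P = 0.0294) after PKM2 knockdown, calls that limma on log2(TPM + 1) did not make, and that of IGFBP3 was also lost without the third PKM2_KD library (-0.185). DLC1 passed the test of the difference (-0.36, edgeR adjusted P = 0.0252), whereas IGFBP3 had nearly the same log2 fold change after NONO knockdown, -0.24, and a difference of 0.01. That value of -0.24 lay at the threshold (edgeR adjusted P = 0.05). It was called with a replicate block (-0.244), without the low-count filter (-0.237) and without the first NONO_KD library (-0.33). GADD45B, a stress-response gene, fell by 0.30 after NONO knockdown (edgeR adjusted P = 0.0034) and stood at 0.07 after PKM2 knockdown, and the fall was -0.184 and not called with limma on log2(TPM + 1).

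Opposite calls in the 2 experiments were seen for 2 targets. ARHGEF17, a guanine nucleotide exchange factor, was at 60.8, 66.0 and 63.6 CPM in NC and 40.5, 40.8 and 36.8 CPM in NONO_KD, but at 57.1, 56.7 and 56.5 CPM in NC and 69.5, 77.4 and 67.1 CPM in PKM2_KD. Log2 fold changes of -0.69 (SE 0.06, edgeR adjusted P = 1.08e-05) and 0.33 (SE 0.06, edgeR adjusted P = 0.000503) differed by 1.01 (SE 0.09, edgeR adjusted P = 4.12e-08), though the fall was -0.425 and not called with limma on log2(TPM + 1). NT5E, the ecto-nucleotidase CD73, went from 611 ± 16.8 to 735 ± 8.86 CPM with NONO knockdown and from 603 ± 13.3 to 452 ± 19.7 CPM with PKM2 knockdown, a difference in log2 fold change of -0.70 (edgeR adjusted P = 6.52e-08).

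Compared directly in a single fit of all 12 libraries, 30 of the 39 members responded differently to the 2 knockdowns, 16 lower and 14 higher after PKM2 knockdown, beside 53.1% of all 15995 genes tested, 27.4% lower and 25.7% higher. Components divided into 8 lower and 10 higher, and targets into 8 lower and 4 higher. The 9 members without a called difference were NF2, STK3, STK4, LATS1, PTPN14, VGLL3, CCN1, MYOF and IGFBP3. Without the third PKM2_KD library the differences of PTPN14 (0.362) and MYOF (0.143) were called, and that of PTPN14 (0.22) also without the low-count filter. Differences were no longer called for DLC1 (-0.271) and GADD45B (0.247) without that library, nor for DLC1 without NC library 1 for NONO. That of DLC1 was also lost without NC library 2 for PKM2 (-0.227) or NONO_KD library 3 (-0.345). That of GADD45B was also lost without NC library 1 (0.284) or 3 (0.337) for PKM2, or NONO_KD library 2 (0.349) or 3 (0.333). With limma on log2(TPM + 1) the differences of YAP1 (0.084), WWTR1 (-0.033), CRIM1 (0.24), DLC1 (-0.224), GADD45B (0.205) and RBMS3 (-0.503) were not called. In the separate fits 9 members were lowered by both knockdowns (AMOT, ANKRD1, ASAP1, CCN2, CRIM1, MOB1B, STK3, STK4 and TEAD1), where 9.93% of the 14525 genes tested in both were. LATS2, AMOTL1, YAP1 and MYOF were raised by both, where 9.34% of genes were.

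Opposite calls were made for 5 members, AMOTL2, AJUBA and ARHGEF17 lower with NONO knockdown and higher with PKM2 knockdown, and NT5E and TEAD2 the reverse, where 4.18% and 3.79% of genes had these patterns. CCN1, LATS1, PTPN14 and TEAD3 were called in neither experiment, as were 23.0% of genes. Across the 39 members the log2 fold changes of the 2 experiments, which share no library, had a Pearson r of 0.41 and a Spearman coefficient of 0.34, beside 0.33 and 0.30 across all 14525 genes. Split by class, r was 0.45 over the 24 components and 0.29 over the 15 targets, and genes are not independent replicates.

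**Figure D4:**
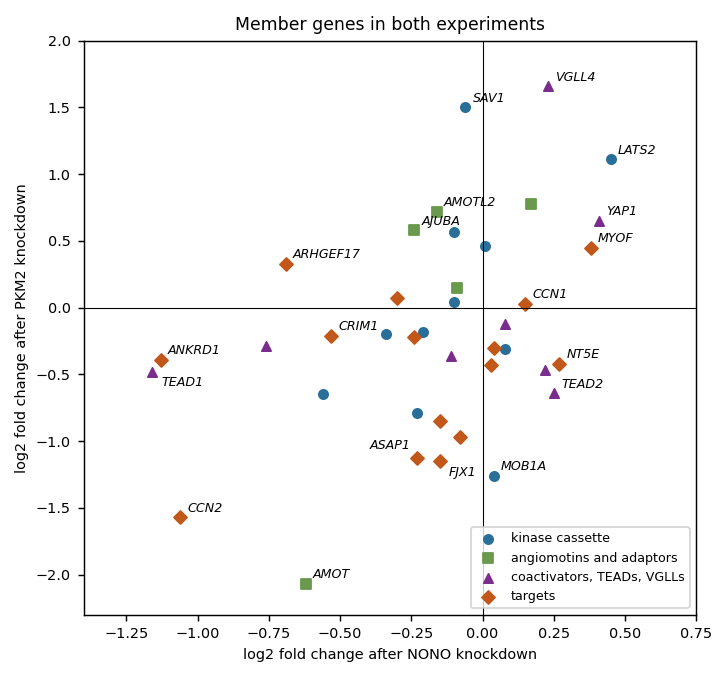
Log2 fold change after NONO knockdown (horizontal axis) against that after PKM2 knockdown (vertical axis) for the 39 members, 1 point per gene, with colour and shape giving the role. CCN2 and AMOT lie lower left, LATS2, YAP1 and MYOF upper right, and ARHGEF17, AMOTL2 and AJUBA upper left.

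Beyond the 39 members, 2 further lists of the pathway were counted. Of 13 other YAP/TAZ target genes, 2 fell and 4 rose after NONO knockdown (median log2 fold change 0.04), and 2 fell and 8 rose after PKM2 knockdown (median 0.54), a median on the other side of 0 from that of the 15 member targets. The shares called were 46.2% and 76.9%, beside 33.4% and 68.4% of all genes. TGFB2 and THBS1, a growth factor and a matrix glycoprotein, rose from 63.3 ± 3.77 to 196 ± 13.3 CPM and from 111 ± 4.16 to 309 ± 18.9 CPM in PKM2_KD, with log2 fold changes of 1.63 and 1.47, against 0.07 and 0.00 after NONO knockdown. AREG, an EGFR ligand, rose after both, at 1.05 (edgeR adjusted P = 0.00102) and 1.03 (edgeR adjusted P = 0.00012).

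Of 47 other pathway components 41 were tested, with 10 lower and 6 higher after NONO knockdown and 12 lower and 22 higher after PKM2 knockdown. So 16 and 34 of the 41 were called, where 33.4% and 68.4% of all genes were. RASSF2, which binds MST kinases, fell from 34.1 ± 1.10 to 1.66 ± 0.286 CPM in PKM2_KD (log2 fold change -4.35, SE 0.11, edgeR adjusted P = 1.08e-10) and from 33.4 ± 1.36 to 18.2 ± 0.713 CPM in NONO_KD. PATJ, a polarity protein, fell by 1.75 on the log2 scale after PKM2 knockdown (edgeR adjusted P = 1.20e-05). MAP4K4, a kinase that can act on LATS beside MST, rose by 1.01 after NONO knockdown (edgeR adjusted P = 9.61e-07) and by 0.82 after PKM2 knockdown (edgeR adjusted P = 6.26e-08), and the protocadherin gene FAT4 was at -0.86 (edgeR adjusted P = 6.44e-05) and 0.63 (edgeR adjusted P = 0.00196). Both FAT4 calls were lost with limma on log2(TPM + 1), at -0.499 and 0.321.

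Read assignment limits some of these values. Exons of 16 of the 39 members share bases with a gene on the opposite strand in GENCODE 29, and whether counting used strand is not given in the sources used here, so reads of SAV1, VGLL4, TEAD2, WWC2 and YAP1 cannot be told apart from those of their partners where they overlap. The partner of YAP1 was counted at 0 CPM in both experiments, and that of WWC2 had group means of at most 0.017 CPM. Fewer cells of a kind and less RNA per cell cannot be told apart in bulk libraries either.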

How the data were processed

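Poly(A)-selected RNA of 12 MDA-MB-231 libraries was sequenced with paired reads of 150 bases. The authors deposited 1 table per experiment with an estimated count and a TPM value for each gene and library, a gene length, and their own mean TPM, fold changes and P values, which were not used. The submitters' processing notes list fastp, HISAT2, StringTie, RSEM, DESeq2, edgeR and limma and the build hg19; versions, roles, strand setting and annotation release are not given in the sources used here. Coordinates and exon overlaps are from GENCODE 29 (GRCh38), promoters from RefSeq (GRCh38.p14), and none was converted.

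Groups and replicates were taken from the sample labels. The deposited counts, which total 19861762 to 28455268 per library, were rounded to whole numbers and tested in R 4.3.3 with edgeR 4.0.16 (filterByExpr, TMM, quasi-likelihood test, Benjamini-Hochberg adjustment over all genes tested), each knockdown against its own NC group. Genes with an adjusted P below 0.05 were called. SE is the log2 fold change divided by the square root of F. The difference between the knockdowns is the interaction term of a fit of all 12 libraries. CPM uses TMM library sizes. TPM was used for levels between genes and, in limma 3.58.1, as an alternative on log2(TPM + 1). DESeq2 1.42.0, other scaling and filters, a replicate block and each library left out were further alternatives, and a correction for GC content was added after the data had been seen. The test was checked on simulated data in which few genes changed, each strongly. That check does not cover the smaller and more frequent changes seen here.

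The members and lists were chosen with earlier results of these data known. All members are named by role, with values per library for CCN1, CCN2, ANKRD1, YAP1, WWTR1, LATS1, LATS2, TEAD1 and the 3 called members of each role with the largest log2 fold change; values per library for STK3, VGLL3, ARHGEF17, TAOK1 and PTPN14 were added after they had been seen. Of the other pathway genes, the 2 largest called falls and rises of each experiment are named. ATL1, CD37, ATG7 and DCK are named as overlapping genes.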

Additional observations from a re-analysis of the deposited data

Results flagged for a closer look

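For 30 of the 39 members the log2 fold change after PKM2 knockdown differed from that after NONO knockdown by the interaction term of the 12-library edgeR fit at an adjusted P below 0.05, where 53.1% of all genes tested did. In the kinase cassette the response to PKM2 knockdown was the higher for SAV1 by 1.55, WWC2 and LATS2 by 0.65 each and WWC1 by 0.44, and the difference was -1.32 for MOB1A, -0.57 for MOB1B and -0.40 for TAOK1. Among the angiomotins and adaptors it was 0.87 for AMOTL2, 0.81 for AJUBA, 0.60 for AMOTL1 and -1.45 for AMOT.

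Among the coactivators and TEAD partners the difference was 1.42 for VGLL4, 0.66 for TEAD1 and 0.23 for YAP1, and it was -0.27 for WWTR1, -0.22 for TEAD3, -0.70 for TEAD4 and -0.90 for TEAD2. The positive value for TEAD1 reflects a smaller fall after PKM2 knockdown. Among the targets the differences were 1.01 for ARHGEF17, 0.72 for ANKRD1, 0.35 for GADD45B and 0.31 for CRIM1, and -0.36 for DLC1, -0.47 for AXL, -0.53 for CCN2, -0.70 for NT5E, -0.72 for RBMS3, -0.91 for ASAP1 and FOXF2 and -1.02 for FJX1.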

How the results depend on the processing

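DESeq2, omitting the low-count filter and relative log expression scaling kept every count of called members within 1.5 times the value given, and under these and the length correction, which was run on medians and single genes, no median moved by more than the replicate spread. With limma on log2(TPM + 1), as with a pseudocount of 0.1, 13 members were called after NONO knockdown, 5 components lowered and 2 raised; without a TPM filter these were 8, 3 and 1, with 3 targets lowered and 1 raised. Past a 2-fold change at P below 0.05, NONO knockdown left 3 members, 1 component lowered and 0 raised, 2 targets lowered and 0 raised, and PKM2 knockdown left 8 members, 2 components lowered and 3 raised, 3 targets lowered and 0 raised, with 6 members in the difference. With the feedback genes among the targets, 5 targets rose after PKM2 knockdown, and the medians became -0.246 for components and -0.217 for targets. Correcting for GC content, an alternative chosen after seeing the data, moved the median of components after PKM2 knockdown to -0.035. The cause of these changes was not tested. No named gene reversed a called direction.

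Same-numbered libraries had correlated deviations of only -0.065 to 0.036, so the numbers do not pair them. The replicate block gave 21 members after NONO knockdown, 8 components lowered and 7 targets lowered, 32 members after PKM2 knockdown and 30 in the difference. Leaving out 1 library at a time gave 18 to 24 members after NONO knockdown, 6 to 9 components lowered, 3 to 7 raised, 6 to 7 targets lowered and 2 raised. After PKM2 knockdown it gave 31 to 33 members, 9 to 11 components lowered, 9 to 10 raised and 9 to 11 targets lowered, and 28 to 30 members in the difference. Medians ranged from -0.109 to -0.07 and -0.178 to -0.095 for components and from -0.211 to -0.119 and -0.413 to -0.372 for targets after NONO and PKM2 knockdown. With 3 libraries a group, small changes such as those of NF2, MOB1B, AMOTL2, TEAD2 and VGLL3 after NONO knockdown and STK4, DLC1 and IGFBP3 after PKM2 knockdown passed or failed with 1 library.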

Other observations

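Paralogue sums in TPM are given here as values, without a test. STK3 and STK4 together went from 71.1 ± 0.368 to 56.2 ± 2.54 TPM with NONO knockdown and from 68.0 ± 1.9 to 53.6 ± 7.45 TPM with PKM2 knockdown, and all knockdown libraries were below all NC libraries (SD, n = 3). LATS1 and LATS2 together went from 21.5 ± 1.70 to 25.7 ± 0.609 TPM and from 19.1 ± 1.29 to 30.9 ± 3.39 TPM, above NC in all knockdown libraries. WWC1 and WWC2 together were at 55.1 ± 1.61 and 53.8 ± 2.45 TPM, with overlap, in the NONO experiment and at 61.9 ± 2.96 and 81.1 ± 9.21 TPM in the PKM2 experiment.

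The targeted genes moved in the opposite experiment as well. NONO was at 363 ± 10.2 CPM in NC and 447 ± 6.0 CPM in PKM2_KD, and PKM was at 2180 ± 17.7 CPM in NC and 2600 ± 25.8 CPM in NONO_KD. For NONO the rise of 0.30 on the log2 scale became 0.123 and was not called with limma on log2(TPM + 1).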
